A study of Homo sapiens with 9 samples.

Results

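The genes described here are 35 genes of mitosis, chosen by symbol for their known roles in cell division. They were found among 19775 genes of the array by taking probe sets that the platform annotation assigns to 1 gene symbol, and the probe set with the highest mean signal for each gene. All 35 had such a probe set, and each of the 35 was above the floor signal of 12.5 on all 9 arrays. The cells were U937, a human lymphoma line with features of monocytes that grows in suspension. They were heated at 44 or 42 °C for 15 min and kept at 37 °C for 0, 1, 3 or 6 h, and unheated cells at 37 °C were the control. Each of these 9 conditions had 1 array, read from biotin-labelled cRNA made from total RNA, so no test was run and every value describes these arrays.

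Mitosis depends on a wave of transcripts that peaks in G2 and M phase. Cyclin B and CDK1 drive entry, the Aurora and Polo kinases and the kinesins build the spindle, the BUB and MAD proteins delay anaphase until the chromosomes are attached, and CDC20 with the anaphase-promoting complex (APC/C) then marks cyclin B and securin for degradation. Many of these genes are held down outside G2 and M by the DREAM and MuvB complexes, which bind a promoter element named CHR (cell cycle genes homology region), and are activated with NF-Y at CCAAT boxes. In bulk RNA, fewer cells in mitosis and less RNA per mitotic cell cannot be told apart. The question asked of the members was whether their transcripts dip at 3 h of recovery and return at 6 h.

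The promoters of the 5 members shown next each hold a match to the CHR, and all but that of CENPA hold a CCAAT box. Of the 5 members, 3 were lower at 3 h than at 1 and 6 h at both temperatures (ASPM, KIF23 and CENPA). The other 2 were so at 1 temperature only, CCNB1 after 42 °C and PLK1 after 44 °C. The 120 bases before the annotated start are given 5′ to 3′ on the strand of the gene, from RefSeq (GRCh38.p14), at chr1:197146670-197146789 (minus strand), chr15:69414229-69414348 (plus strand), chr2:26785936-26786055 (plus strand), chr5:69167030-69167149 (plus strand) and chr16:23678769-23678888 (plus strand). Capitals mark TTTGAA and TTTAAA, the forms of the CHR searched, and CCAAT, each on either strand.
ASPM: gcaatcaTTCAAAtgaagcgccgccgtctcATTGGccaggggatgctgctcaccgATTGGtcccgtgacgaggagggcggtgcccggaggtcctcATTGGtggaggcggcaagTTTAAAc
KIF23: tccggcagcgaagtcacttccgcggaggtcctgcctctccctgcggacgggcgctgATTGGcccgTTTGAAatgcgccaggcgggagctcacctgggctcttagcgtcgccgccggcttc
CENPA: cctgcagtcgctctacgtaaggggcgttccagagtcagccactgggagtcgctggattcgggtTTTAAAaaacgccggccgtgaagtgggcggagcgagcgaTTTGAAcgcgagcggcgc
CCNB1: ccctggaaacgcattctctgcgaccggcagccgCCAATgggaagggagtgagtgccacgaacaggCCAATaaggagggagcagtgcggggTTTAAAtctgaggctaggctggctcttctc
PLK1: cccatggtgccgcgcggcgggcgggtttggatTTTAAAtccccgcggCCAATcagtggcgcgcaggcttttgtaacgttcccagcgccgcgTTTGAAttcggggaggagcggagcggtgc
The CHR form nearest to the start began 7 bases before it in ASPM, 18 in CENPA, 29 in PLK1, 30 in CCNB1 and 55 in KIF23. The ASPM stretch held 3 CCAAT boxes, CCNB1 2, PLK1 1 and KIF23 1, and the CENPA stretch held none. Over windows of 250 bases before to 50 after the start, RefSeq had 38 promoters for 29 of the members. Of these, 28 (73.7%) held TTTGAA or TTTAAA, against 24.0% of 35116 promoters of all genes, and 31 (81.6%) held CCAAT, against 34.6%. Either CHR form together with CCAAT stood in 24 member promoters (63.2%) and in 9.27% of all. No motif overlaps another in the 5 stretches shown, and TTTAAA reads the same on both strands. The CHR forms did not separate members by their course: they stood in 14 of 18 promoters of members lower at 3 h after 42 °C and in 14 of 20 promoters of the others. A match is a description of letters and not of binding.

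The deposited arrays differed in brightness, with trimmed means of 101 to 211, and were scaled to a common one. The 42 °C arrays at 3 and 6 h were the dimmest (101 and 109) and the 44 °C array at 1 h the brightest (211). Of 12 markers chosen for U937 as a myeloid line, 10 had a probe set of their own and 7 of those were above the floor on all arrays, with a summed signal of 4301 to 6097 per array. None of the 6 T cell markers and none of the 8 markers of epithelium and fibroblasts was above the floor on all arrays, and 1 of 5 measured B cell markers was. On at least 1 array 3, 4 and 4 of these were above it, in the same order, with highest signals of 26.3, 268 and 65.4. One control array without a stated time served for all 8 heated ones, so heat and hours of culture cannot be told apart in any difference from it. Nothing in the labels says that the arrays came from separate experiments.

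As a group the members did not dip at 3 h and return to the control level at 6 h. After 42 °C their median difference from the control, on the log2 scale, was -0.03 at 0 h, 0.02 at 1 h and 0.01 at 3 h, and then 0.23 at 6 h. After 44 °C it was -0.01, 0.01, -0.02 and 0.01 at the same times. Over the 9913 genes above the floor on all arrays the corresponding medians lay between -0.06 and 0.02. Thus the arrays at 3 h showed no common fall from the control, and the one heated array with a member median more than 0.1 from the control was that at 6 h after 42 °C, where it was higher. These differences are relative to each array's trimmed mean. With no scaling the members' median at 6 h after 42 °C was -0.38, but that of all genes was -0.64, and at 3 h after 42 °C the 2 medians were -0.70 and -0.73. Among single genes, only ASPM passed a 2-fold difference in any of 12 comparisons (8 of heated against control cells and 4 of 44 °C against 42 °C), 1 of 35 members, against 21.5% of all genes above the floor. Counted as calls over the 12 comparisons, in which a gene can count more than once, there were 37 with no scaling. With the median over a gene's probe sets there were 13. No share of all genes is given beside these 2 counts, so they are not a result about the members.

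**Figure D1:**
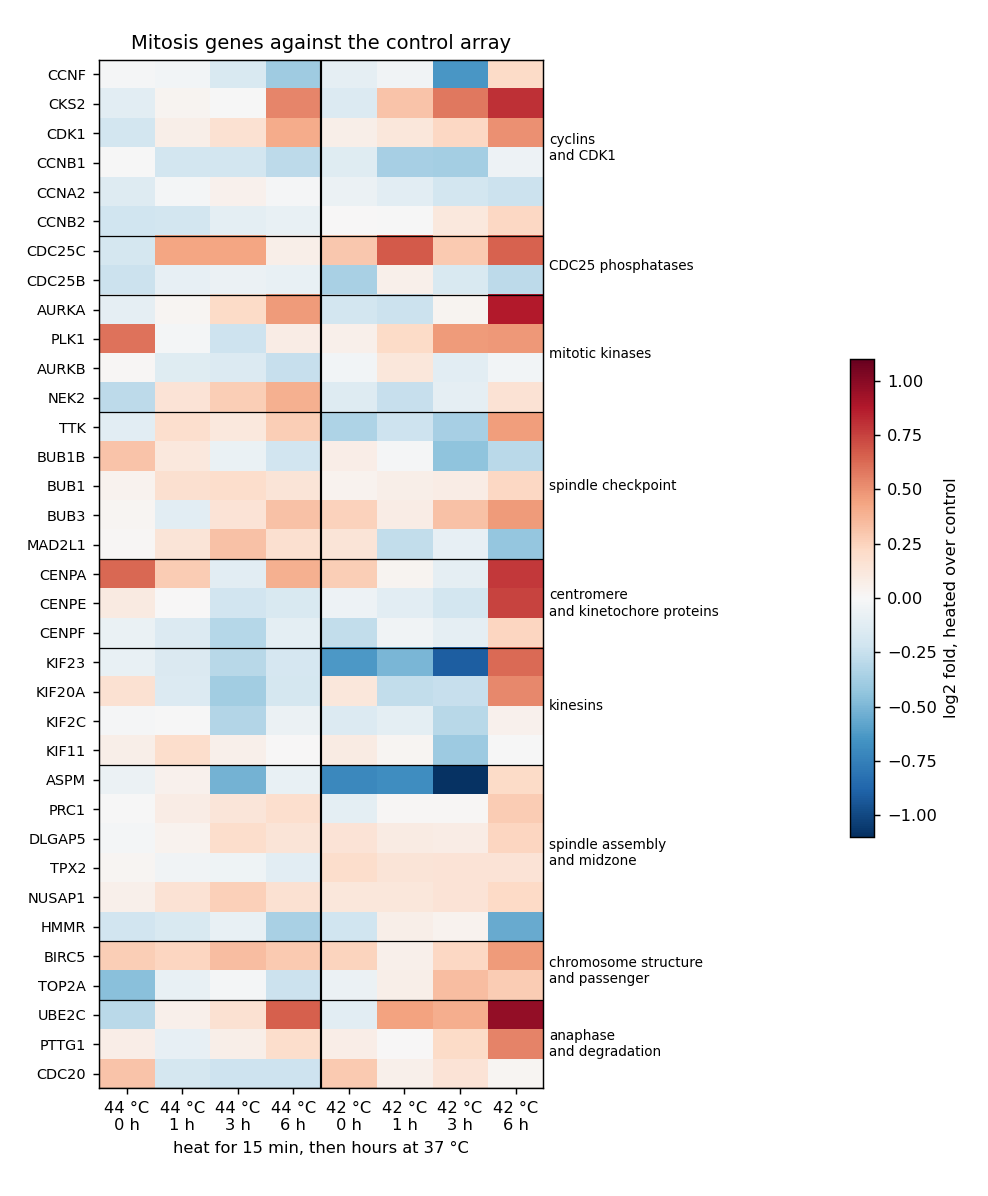
Log2 fold of heated over control signal for the 35 mitosis genes (rows, by role) on the 44 °C arrays (left) and the 42 °C arrays (right) at 0, 1, 3 and 6 h of recovery (columns), 1 array per column. The darkest blue is ASPM at 3 h after 42 °C (log2 -1.09), and the last column, 6 h after 42 °C, is mostly red (27 of 35 genes above the control).

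A dip was counted where the signal at 3 h lay below that at both 1 h and 6 h, whatever the size. After 42 °C, 16 of 35 members met this (45.7%), against 30.0% of all genes above the floor. After 44 °C, 11 of 35 did (31.4%), against 26.0% of all genes. The arrays of the 2 temperatures are different ones, and 7 members dipped at both (20.0%), against 11.5% of all genes. These 7 were ASPM, TTK, CENPA, CENPE, CENPF, KIF2C and KIF23. A further 9 dipped after 42 °C alone, 4 after 44 °C alone (CDC20, PLK1, KIF20A and CKS2), and 15 at neither temperature. Some counted dips were near ties. CDC20 had 1301.1 at 3 h and 1301.6 at 6 h after 44 °C. After 42 °C, PRC1 had 1507 at 1 h and 1500 at 3 h, and DLGAP5 764 and 761.

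The depth of the dip was taken as log2 at 3 h minus the mean of log2 at 1 and 6 h, so that a negative value puts 3 h below that mean. A negative depth is not always a dip: AURKA and KIF20A had one after 42 °C with 3 h above 1 h, and "dipped" refers to the count throughout. Its median over the members was 0.01 after 44 °C and -0.09 after 42 °C, against 0.01 at each temperature over all genes, and the median after 42 °C was -0.18 with quantile normalisation, under which 21 members dipped, against 26.3% of all genes (median 0.02). With no scaling 31 members dipped after 42 °C, as did 54.8% of all genes. Depths ran from -0.50 to 0.19 after 44 °C and from -0.96 to 0.29 after 42 °C. A depth of 1.5-fold or more below that mean was seen in 3 of 35 members after 42 °C (KIF23, ASPM and CCNF), against 6.59% of all genes, and in 0 of 35 after 44 °C, against 3.73% of all genes. Across the 35 members the depths at the 2 temperatures had a Pearson correlation of 0.52 (Spearman 0.51), where over all 9913 genes it was 0.28 (Spearman 0.26); the points of a gene share its probe set.

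**Figure D2:**
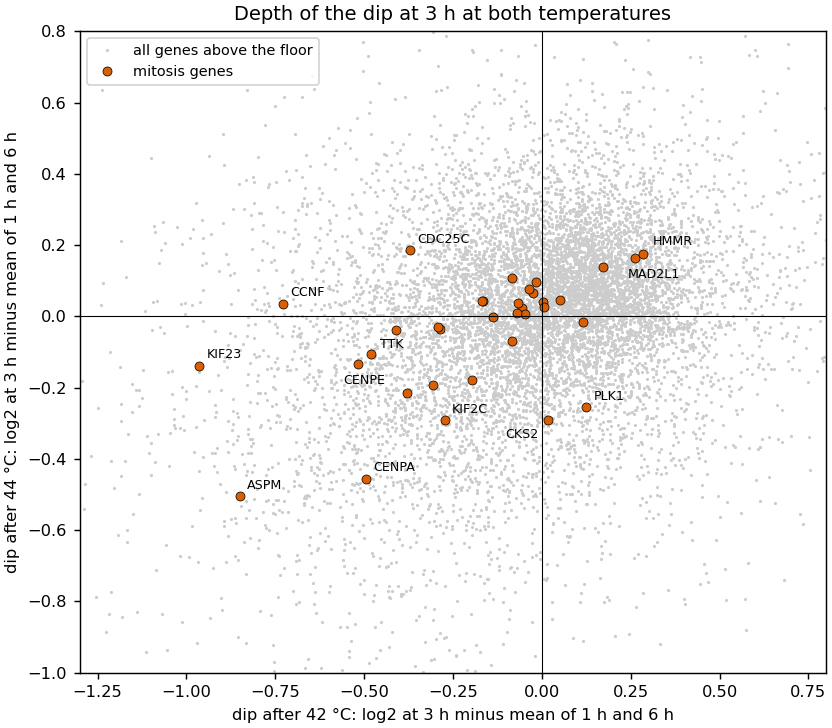
Depth of the dip at 3 h after 42 °C (horizontal axis) and after 44 °C (vertical axis), both in log2, for the 35 mitosis genes (orange) and all 9913 genes above the floor (grey, cropped to the axes shown), 1 point per gene. ASPM (-0.85 and -0.50) and CENPA (-0.50 and -0.46) are low on both axes, KIF23 (-0.96) and CCNF (-0.73) on the horizontal one alone, and most members lie near 0.

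The depth also went with brightness. After 42 °C the dimmer members had more negative depths (Spearman 0.61 between depth and mean signal over 35 members; after 44 °C 0.15). All genes showed a like slope after 42 °C, with a median depth of -0.12 in the dimmest of 5 equal groups by mean signal and 0.12 in the brightest. In that brightest group, which holds 21 of the members, 7 members dipped after 42 °C (33.3%) where 12.4% of its 1983 genes did, and the median depth of these members was -0.07 against 0.12. After 44 °C, 5 of the 21 dipped where 13.2% of the genes of that group did, with medians of 0.03 and 0.04. In the group below it 6 of 11 members dipped after 44 °C, against 20.3% of its genes, with a median depth of -0.13 against 0.04. After 42 °C 6 of the 11 dipped as well, against 24.9% of its genes, with a median depth of -0.38 against 0.02.

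**Figure D3:**
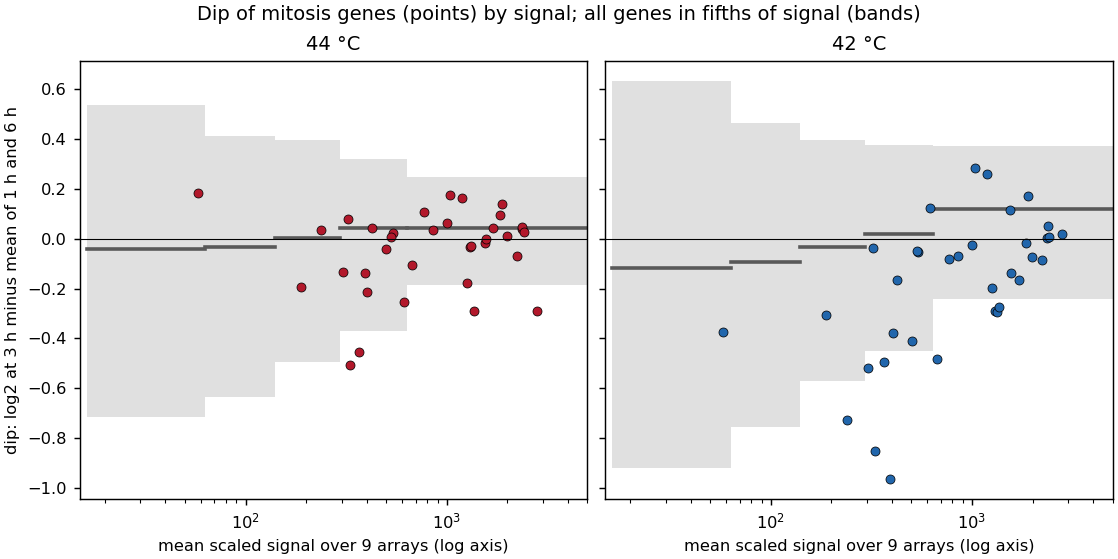
Depth of the dip at 3 h (vertical axis, log2) against mean scaled signal over the 9 arrays (horizontal log axis) for the 35 mitosis genes (points) after 44 °C (left) and 42 °C (right). Grey bands span the 5th to 95th percentile of all genes in each of 5 equal groups by signal and dark lines their medians, which climb from -0.12 to 0.12 after 42 °C, and 4 members after 44 °C (ASPM, CENPA, KIF2C and CKS2) and 9 after 42 °C (KIF23, ASPM, CCNF, CENPE, CENPA, TTK, BUB1B, AURKA and KIF2C) lie under the bands.

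Full courses follow by role, for ASPM and CCNB1, which mark the set, and for the member of each role group with the most negative mean depth over both temperatures. Among cyclins and CDK1, CCNB1, the cyclin B1 that activates CDK1 at mitotic entry, had scaled signals of 1932 in control cells, 1921, 1681, 1682 and 1587 at 0, 1, 3 and 6 h after 44 °C, and 1763, 1504, 1489 and 1857 at the same times after 42 °C. It was lower than the control on all 8 heated arrays, by at most 0.38 in log2 (3 h after 42 °C). The 3 h array was level with 1 h at both temperatures. The other CCNB1 probe set had 504 in control cells, and 530 and 531 at 1 and 3 h after 44 °C. After 42 °C it fell further, to 283 at 3 h, and had 336 at 6 h. CCNF, an F-box cyclin that marks proteins for degradation in G2, had 261 in control cells, 259, 256, 232 and 199 at 0, 1, 3 and 6 h after 44 °C, and 243, 253, 167 and 302 at the same times after 42 °C. It was lowest on the 42 °C array at 3 h (log2 -0.64 against control), and its other probe set gave a shallower depth of -0.26 there.

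CCNB1 and CCNF met the count of a dip after 42 °C, and CKS2 after 44 °C. CKS2, a small subunit that binds CDK1, was higher at each later time after 42 °C, and at 6 h it had 3496 after 44 °C and 4198 after 42 °C, against 2403 in control cells (log2 0.54 and 0.80). CDK1, the kinase itself, had a log2 difference from control of 0.41 at 6 h after 44 °C and 0.51 after 42 °C. Its other bright probe sets rose further, from 501 and 665 in control cells to 802 and 1139 at 6 h after 44 °C. At 6 h after 42 °C these had 933 and 1261. The remaining CDK1 probe set was above the floor on 1 array. CCNB2, a second cyclin B, and CCNA2, the cyclin of S and G2 phase, stayed within 0.23 of the control on all arrays. In the CDC25 phosphatases, which remove the brake on CDK1, CDC25C was dim, with 47.3 in control cells, 41.5, 64.1, 63.9 and 49.4 at 0, 1, 3 and 6 h after 44 °C, and 58.1, 75.4, 57.8 and 74.2 at the same times after 42 °C. It met the count of a dip after 42 °C, between signals that were higher than in control cells, and CDC25B stayed within 0.35 of the control.

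Of 4 mitotic kinases, PLK1 dipped after 44 °C and AURKB after 42 °C. AURKA, which acts at the spindle poles, had 1205 in control cells, 1127, 1225, 1393 and 1662 at 0, 1, 3 and 6 h after 44 °C, and 1048, 1020.2, 1229 and 2206 at the same times after 42 °C. Its highest array was that at 6 h after 42 °C (log2 0.87 against control), the next that at 6 h after 44 °C (0.46), and another bright probe set of AURKA gave a like depth at 3 h after 42 °C (-0.24 and -0.29). PLK1, the Polo kinase, was highest directly after heat at 44 °C (819.6 against 565 after 42 °C at 0 h), and at 3 h it stood at 464 after 44 °C and 751 after 42 °C. AURKB, the kinase of the chromosomal passenger complex, stayed within 0.25 of the control, and NEK2, which separates the centrosomes, within 0.39. The other AURKB probe set, dim, ran from 14.7 (1 h after 44 °C) to 148 (6 h after 42 °C), with 40.4 in control cells.

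Of the spindle checkpoint genes, TTK, the kinase that recruits the checkpoint to kinetochores, had 671 in control cells, 619, 762, 729 and 807 at 0, 1, 3 and 6 h after 44 °C, and 530.0, 574, 521 and 921 at the same times after 42 °C. After 42 °C its signals were below the control up to 3 h and above it at 6 h, while its depth after 44 °C was -0.10. BUB1B, which inhibits the APC/C, was lowest at 3 h after 42 °C (log2 -0.44 against control) and at 6 h after 44 °C (-0.21). BUB1 and BUB3, partners at the kinetochore, had no dip at either temperature. MAD2L1, which holds CDC20, had its lowest signal at 6 h after 42 °C (888 against 1191 in control cells). Another bright probe set of MAD2L1 was lowest in control cells (790) and had 949 at 6 h after 42 °C. A dimmer one had 93.3 there, against 103 in control cells.

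By the brightest probe sets, the centromere and kinetochore genes were the one role group in which every member dipped at both temperatures. These were 3 of 3, against 11.5% of all genes. CENPA, the histone H3 variant that marks centromeres, had 309.6 in control cells, 481, 376, 285 and 407 at 0, 1, 3 and 6 h after 44 °C, and 373, 316, 289.9 and 529.8 at the same times after 42 °C. Its level at 3 h was close to the control (log2 -0.12 after 44 °C and -0.09 after 42 °C), so its dip was one between higher signals at earlier and later times. CENPE, a kinetochore motor, had its largest difference from the control at 6 h after 42 °C (0.75), and was -0.17 at 6 h after 44 °C. CENPF, a large kinetochore protein, ran from -0.31 at 3 h after 44 °C to 0.23 at 6 h after 42 °C. Another CENPF probe set had 215, 224 and 181 at 1, 3 and 6 h after 44 °C, and did not dip. After 42 °C it had 199, 88.4 and 61.2 at these times, against 149 in control cells, and did not dip either. The remaining one, dim, dipped at both temperatures, with depths of -0.47 after 44 °C and -0.97 after 42 °C.

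Of the 4 kinesins, 3 dipped after 44 °C (KIF2C, KIF20A and KIF23) and 3 after 42 °C (KIF2C, KIF11 and KIF23). KIF23, a motor of the central spindle needed for cytokinesis, had 464 in control cells, 437, 416, 375 and 409 at 0, 1, 3 and 6 h after 44 °C, and 299, 327, 248 and 713 at the same times after 42 °C. After 42 °C it was already low at 0 h (log2 -0.63 against control), lowest at 3 h (-0.90) and highest at 6 h (0.62), while after 44 °C it stayed within 0.31 of the control. KIF2C, which takes apart microtubules at kinetochores, had nearly equal depths of -0.29 after 44 °C and -0.27 after 42 °C. KIF20A, another motor of the central spindle, had -0.21 and -0.38, and KIF11, which pushes the spindle poles apart, -0.04 and -0.41.

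Among spindle assembly and midzone genes ASPM, a spindle pole protein of dividing cells, had 413 in control cells, 395, 426, 287 and 390.3 at 0, 1, 3 and 6 h after 44 °C, and 253, 256, 194 and 476 at the same times after 42 °C. The 42 °C arrays at 0, 1 and 3 h were all below every other array, and the array at 6 h was the highest of the 9. Its log2 difference from the control was -0.71 at 0 h, -0.69 at 1 h, -1.09 at 3 h and 0.21 at 6 h after 42 °C, so most of the fall from the control was present at the end of the heat. After 44 °C it was -0.52 at 3 h and within 0.08 at the other times. The 2 other ASPM probe sets, both dim, gave depths of -0.03 and 0.75 after 44 °C and -0.39 and -0.54 after 42 °C, so one of them ran the other way after 44 °C. TPX2, which activates AURKA on the spindle, NUSAP1 and PRC1, which bundle microtubules, and DLGAP5 stayed within 0.28 of the control on all arrays. HMMR, a hyaluronan receptor that also binds the spindle, had no dip and was lowest at 6 h after 42 °C (792 against 1164 in control cells). The other HMMR probe set was lowest in control cells (456) and had 525 at 6 h after 42 °C.

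By the brightest probe sets, neither gene of the chromosome group dipped. BIRC5 (survivin), the chromosomal passenger protein, had 273 in control cells, 329.8, 322, 346 and 333 at 0, 1, 3 and 6 h after 44 °C, and 324, 284, 319 and 378 at the same times after 42 °C, with all heated arrays above the control. Another BIRC5 probe set dipped at both temperatures, with 172, 129 and 141 at 1, 3 and 6 h after 44 °C. After 42 °C it had 165, 132 and 164 at these times, against 139 in control cells. The remaining BIRC5 probe sets did not dip at either temperature. TOP2A, which untangles sister chromosomes, was lowest at 0 h after 44 °C by its brightest probe set (1395 against 1918 in control cells). Another bright probe set of TOP2A was lowest in control cells (1132) and had 1226 at 0 h after 44 °C. Among anaphase and degradation genes UBE2C, which supplies ubiquitin to the APC/C, had 158 in control cells, 129, 165, 177 and 249.7 at 0, 1, 3 and 6 h after 44 °C, and 146, 215, 208 and 308 at the same times after 42 °C. It was highest at 6 h at both temperatures (log2 0.66 after 44 °C and 0.96 after 42 °C), and passed 2-fold after 42 °C with quantile normalisation (1.03). PTTG1 (securin) had 0.19 and 0.55 at 6 h, and CDC20, the APC/C activator, had its highest signals at 0 h (1886 after 44 °C and 1859 after 42 °C, with 1521 in control cells).

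**Figure D4:**
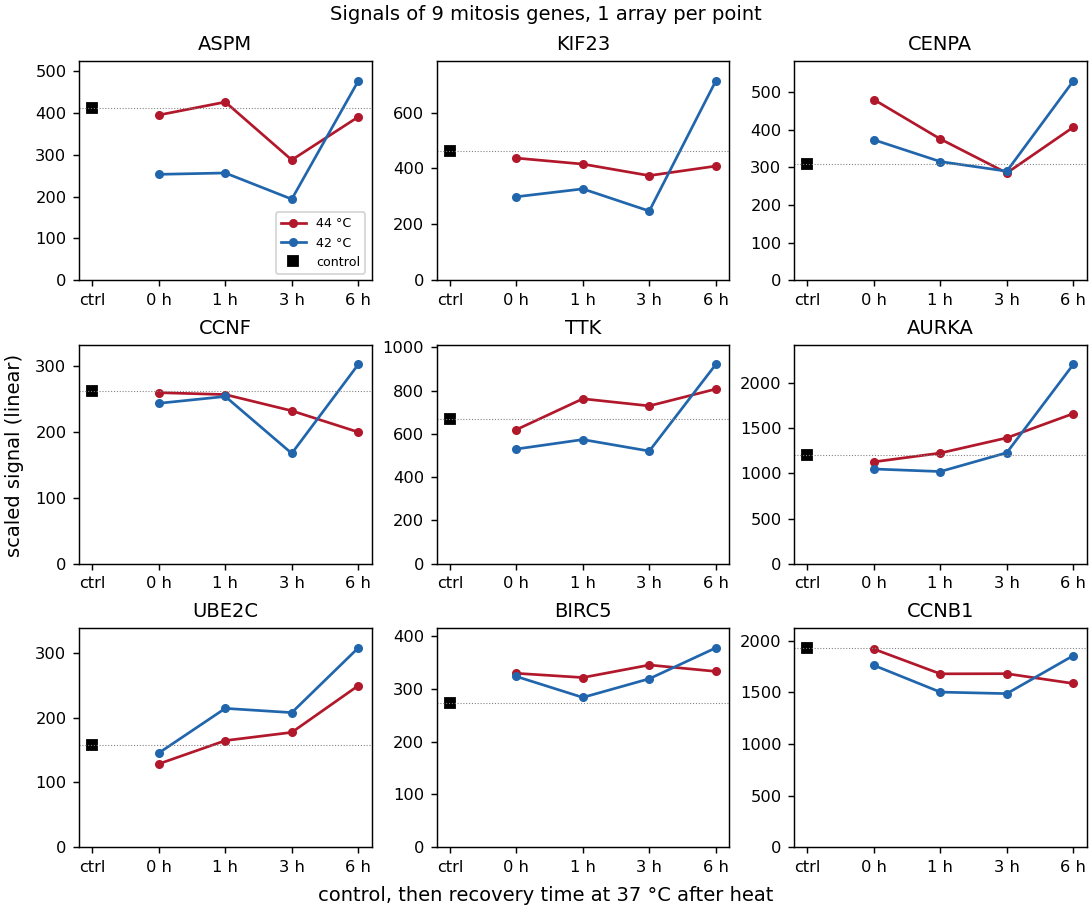
Scaled signal (vertical axes, linear, from 0) of 9 mitosis genes in control cells (black square and dotted line) and at 0, 1, 3 and 6 h after 44 °C (red) and 42 °C (blue), 1 array per point. ASPM, KIF23, CCNF and TTK have their lowest 42 °C signal at 3 h and exceed the control at 6 h. UBE2C and AURKA are highest at 6 h, and CCNB1, by its brightest probe set, changes little.

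From 3 to 6 h after 42 °C most members were higher at the later time. Their median was 0.25 in log2 (-0.02 over all genes), and 28 of 35 were higher at 6 h than at 3 h, against 47.9% of all genes. By 1.5-fold or more 8 members were higher, against 11.1% of all genes: KIF23 (1.53), ASPM (1.30), CENPE (0.95), CENPA (0.87), CCNF (0.85), AURKA (0.84), TTK (0.82) and KIF20A (0.78). KIF23 and ASPM passed 2-fold, 2 of 35 members, against 2.89% of all genes. HMMR was 1.5-fold lower by its brightest probe set (-0.60), while its other probe set had 587 at 3 h and 525 at 6 h. After 44 °C the same step had a median of 0.02 (-0.03 over all genes), with 19 of 35 higher at 6 h, against 46.0% of all genes, and 0 by 1.5-fold, against 7.94%.

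At 6 h after 42 °C most members were above the control level. Of 35, 27 were above it, against 46.6% of all genes, and 7 were so by 1.5-fold or more, against 9.87%: UBE2C, AURKA, CKS2, CENPA, CENPE, CDC25C and KIF23. At 6 h after 44 °C, 18 of 35 were above the control, against 44.9% of all genes, and 1, UBE2C, by 1.5-fold, against 9.91%. These counts rest on the brightest probe sets, and other bright CDK1 probe sets were further above the control at 6 h than the brightest at both temperatures. At 3 h after 42 °C, ASPM, KIF23 and CCNF were 1.5-fold below the control, 3 of 35, against 14.8% of all genes. With the control array in place of the 6 h array, an alternative chosen after seeing the data, 14 members dipped at each temperature (40.0%), near the share of all genes, 38.5% after 44 °C and 39.4% after 42 °C. The median depths were then -0.0028 after 44 °C and 0.0074 after 42 °C, against -0.02 and -0.03 over all genes.

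**Figure D5:**
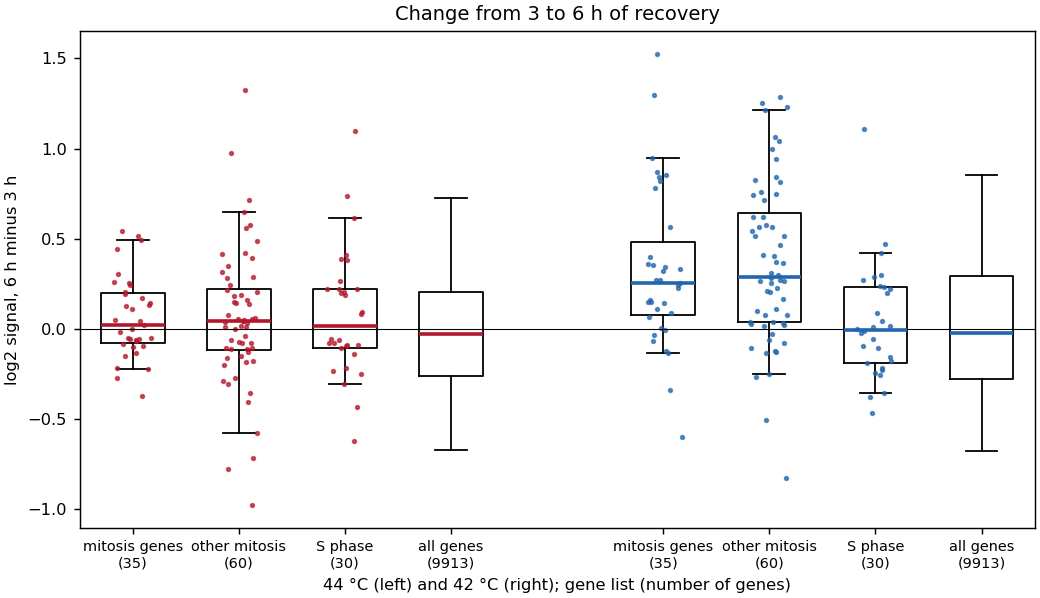
Log2 signal at 6 h minus 3 h after 44 °C (left) and 42 °C (right) for the 35 mitosis genes, 60 other mitosis genes, 30 S phase genes and all 9913 genes above the floor, 1 point per gene in the lists. Boxes span the quartiles with the median as a coloured line, and whiskers the 5th to 95th percentile; both mitosis lists sit above 0 after 42 °C (medians 0.25 and 0.29) and near 0 after 44 °C (0.02 and 0.04).

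At 6 h the 2 temperatures were set against each other. Signals were lower after 44 °C than after 42 °C in 28 of 35 members, against 50.1% of all genes, with a median of -0.23 (-0.00085 over all genes). CENPE (270.1 after 44 °C against 509 after 42 °C), KIF23 (409 against 713) and KIF20A (365 against 602) had the largest differences, of -0.92, -0.80 and -0.72 in log2. MAD2L1 went the other way, by 0.60. At 0, 1 and 3 h the medians for 44 °C against 42 °C were 0.03, 0.04 and 0.11, and ASPM was higher after 44 °C at each of these times, by 0.64, 0.73 and 0.57. The deposited 42 °C array at 6 h had a trimmed mean of 109, where that at 44 °C had 191, and the part of this difference in the result was not tested. With no scaling the median for 44 °C against 42 °C at 6 h turned to 0.59, but all genes shifted the same way. Against the control at 6 h, the unscaled medians of all genes were 0.15 after 44 °C and -0.64 after 42 °C. Those of the members were 0.21 and -0.38.

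A list of 60 further mitosis genes, such as condensins, NDC80 and CENP subunits and other kinesins was set beside the members, and all 60 were above the floor on all arrays. After 42 °C 49 of 60 were higher at 6 h than at 3 h, against 47.9% of all genes, with a median of 0.29. After 44 °C 35 of 60 were, against 46.0% of all genes, with a median of 0.04. At 3 h 12 dipped after 44 °C (20.0%), 24 after 42 °C (40.0%) and 6 at both (10.0%), where 26.0%, 30.0% and 11.5% of all genes did. Of the 60, 16 were 1.5-fold or more above the control at 6 h after 42 °C, against 9.87% of all genes. By the same size 0 of the 60 were below it, against 1411 of all 9913 genes. FBXO5 (EMI1), which inhibits the APC/C, had 458 in control cells, 422, 308, 273 and 685 at 0, 1, 3 and 6 h after 44 °C, and 223, 211, 323 and 751 at the same times after 42 °C. It was below the control from 0 to 3 h and above it at 6 h after 42 °C, and likewise after 44 °C, where it was lowest at 3 h. TACC3, a spindle protein, had depths of -0.25 after 44 °C and -0.67 after 42 °C, CDCA2 had -0.17 and -0.66, and the kinetochore gene CENPH peaked at 3 h (0.44 and 0.82).

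Genes of S phase, which prepare and carry out DNA replication, had a median near 0 at this step. Of 31 listed, 30 were measured, all above the floor. From 3 to 6 h after 42 °C 14 of 30 were higher, with a median of -0.01, and 5 dipped at 3 h. After 44 °C 15 were higher, with a median of 0.02, and 8 dipped. Of all genes 47.9% were higher and 30.0% dipped after 42 °C, and 46.0% and 26.0% did so after 44 °C. CCNE2, a cyclin of S phase entry, had the most negative mean depth of the list, with 385 in control cells, 407, 238, 307 and 512 at 0, 1, 3 and 6 h after 44 °C, and 267, 166, 176 and 379 at the same times after 42 °C. Whether the lists differ was not tested.

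Probe sets other than the brightest gave a partly different picture. The members had 73 probe sets, 38 of them not used above, of which 33 were above the floor in control cells. Among 26 above the floor on all arrays the depth had the same sign as that of the brightest probe set in 16 after 44 °C and in 23 after 42 °C. A depth of 1.5-fold or more at both temperatures was seen in 4 of the 33 and in 0 of the 35 brightest, against 1.51% of 22041 probe sets with 1 gene above the floor in control cells. The 4 were dim, 2 of BUB1 and 1 each of KIF23 and TOP2A. That of KIF23 had 53.0 in control cells, 88.7, 30.5, 24.3 and 77.5 at 0, 1, 3 and 6 h after 44 °C, and 19.3, 48.2, 35.7 and 157 after 42 °C. The BUB1 probe set with the most negative depth had 17.3 in control cells, 46.8, 15.2, 12.5 and 44.3 after 44 °C and 53.5, 47.9, 17.4 and 70.0 after 42 °C, although the brightest probe set of BUB1 had no dip. Signals this close to the floor of 12.5 limit what the size of these depths can tell.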

How the data were processed

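The deposited values were linear intensity values, 1 for each of 54675 probe sets on 9 arrays, made with MAS5 per the submitters' processing notes, with a scaling target not given in the sources used here. Scaling set the trimmed mean of every array (2% off each end, control probe sets aside) to 100. A floor at the median scaled value (12.5) replaced lower values before log2. One factor per array, unlike quantile normalisation, leaves the distributions unequal in shape, so that bright and dim genes can shift apart. Probe sets with 1 symbol in the platform annotation (41097) were named through RefSeq gene numbers, and the brightest per gene was used. Groups came from the treatment labels, and with 1 array for each no test was made, nor a model pooling temperatures or times. The dip measure was tested on simulated data, with 2-fold dips planted in bright genes. It was not tested there on the smaller depths seen in the members or on dim genes. Full courses are printed for ASPM, CCNB1, the member with the most negative mean depth in each role group, and members past 2-fold. The members, lists and this rule were chosen with earlier results of these data known. Alternatives were quantile normalisation, no scaling, floors at the 25th and 75th percentile, other probe set rules and the 0 h array as reference, and 2 were added after the data were seen. Computation used Python 3.11.15, pandas 2.3.3 and numpy 2.4.6.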

Additional observations from a re-analysis of the deposited data

How the results depend on the processing

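With 1 array per condition, no spread between replicates was measured, and signal over background limits the dim members and probe sets. No paired analysis was possible because the groups share only 1 replicate number; 44 and 42 °C were set against each other at each time, and no fit with time as a block was run. Of 144 recomputed values, 118 stayed within 0.1 in log2 (medians) or within 1.5 times (counts) and 26 moved further. With no scaling, 15 of 22 moved, since the brightness of the arrays then enters: 31 members dipped after 42 °C with a median depth of -0.37, the medians against control were -0.22, -0.70 and -0.38 at 1, 3 and 6 h after 42 °C and 0.36, 0.29 and 0.21 after 44 °C, those for 44 °C against 42 °C were 0.13, 0.64, 1.13 and 0.59 at 0, 1, 3 and 6 h, and from 3 to 6 h they were -0.082 after 44 °C and 0.36 after 42 °C. The 1 call of 2-fold over 12 comparisons became 37 with no scaling, 2 with quantile normalisation, 13 with the median over probe sets, 6 without s_at and x_at probe sets and 27 with a 1.5-fold rule, which was chosen after seeing the data. No share of all genes is given beside these counts of calls. The median over probe sets gave 0.14 at 6 h after 44 °C against control and 0.00 for 44 °C against 42 °C at 3 h, and a floor at the 75th percentile also gave 0.00 for that comparison. Without s_at and x_at probe sets, which left 28 members, the median depth after 42 °C was -0.20, that against control at 3 h after 42 °C -0.11 and that for 44 °C against 42 °C at 6 h -0.10. With the 0 h array as reference the median at 3 h after 44 °C was 0.11. The cause of the other changes was not tested. With quantile normalisation 15 of the 16 members that dipped after 42 °C, 10 of the 11 after 44 °C and the 7 at both still did. A floor at the 25th percentile moved none of 22 values.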

Other observations

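Among regulators of the mitotic programme, FOXM1, the activator that binds with MuvB at CHR promoters, had scaled signals of 429.5 in control cells, 424, 488, 500.3 and 475 at 0, 1, 3 and 6 h after 44 °C, and 434, 442, 352 and 468 at the same times after 42 °C. MYBL2 (B-MYB), its partner, had 730.5 in control cells, 841, 855, 918 and 842 at 0, 1, 3 and 6 h after 44 °C, and 999, 844, 865 and 673 at the same times after 42 °C. In the list of 23 cell cycle transcription factors 22 were above the floor on all arrays. Of these 5 dipped at 3 h after 44 °C and 5 after 42 °C, with 2 at both, where 26.0%, 30.0% and 11.5% of all genes did. LIN37, a MuvB subunit, had the most negative depth after 42 °C (-0.28 after 44 °C and -0.82 after 42 °C), E2F2 had -0.17 and -0.52, and RBL2 (p130), the pocket protein of DREAM, peaked at 3 h after 44 °C (0.59).

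Among 11 genes that restrain CDK1 or act in the G2 checkpoint, WEE1, the kinase that inhibits CDK1, had 661 in control cells, 512, 623, 634 and 910.1 at 0, 1, 3 and 6 h after 44 °C, and 430.2, 520.4, 563 and 970.3 at the same times after 42 °C, so that it was below the control from 0 to 3 h and above it at 6 h at both temperatures. CDKN1A (p21) had 105 in control cells, 15.4, 147, 261 and 246 at 0, 1, 3 and 6 h after 44 °C, and 79.5, 217, 319 and 159.7 at the same times after 42 °C, below the control at 0 h and highest at 3 h at both temperatures. GADD45B had 234 in control cells, 219, 656, 653 and 486 at 0, 1, 3 and 6 h after 44 °C, and 692, 689.8, 632 and 323 at the same times after 42 °C. Of the 12 measured APC/C genes of 13 listed, 3 dipped at 3 h after 44 °C and 1 after 42 °C, where 26.0% and 30.0% of all genes did. The median depth of these 12 was 0.02 at each temperature. The mean depth of largest size there was that of FZR1 (CDH1), with -0.40 and -0.14. These courses were not tested.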
